A study of Arabidopsis thaliana with 12 samples.

Results

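The comparison described here set seedlings kept in shade at 28 °C against seedlings kept in white light at 28 °C, and asked what shade adds in plants that are already warm. Genes were tested when their deposited log2 value was at least 0 in at least 3 of the 12 libraries, which holds for 21316 of the 33602 genes listed. RNA came from whole Arabidopsis thaliana seedlings of genotype wild-type Columbia 0, which were 3 days old at the start and had been grown at 22 °C with 10 h of white light a day (100 µmol m-2 s-1, red to far-red ratio 1.1). On day 4 they spent the 10 h light period in white light or shade, each at 20 or 28 °C, and were sampled at its end. Each of the 4 groups had 3 biological replicates, so the comparison rests on 6 libraries, and the shade light itself is not described further in the labels. All groups share the genotype, the growth conditions and the change of temperature away from 22 °C on day 4.

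Shade from neighbouring leaves lowers the ratio of red to far-red light, which turns off the photoreceptor phytochrome B. Phytochrome-interacting factors (PIFs) are then free to raise auxin synthesis and growth genes, and the hypocotyl lengthens. Warmth also turns off phytochrome B and acts through PIF4, so both cues reach the same growth genes in this tissue.

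At 28 °C, shade raised shade marker, auxin-response, aquaporin, tubulin, carbon-starvation and cold-regulated genes. It lowered genes for anthocyanin, aliphatic glucosinolates, chlorophyll, starch and antenna proteins, several chaperone genes and several genes known from oxygen shortage. By limma with Benjamini-Hochberg adjustment over all tested genes, 572 genes rose, which is 2.68% of those tested, and 406 fell, which is 1.9%. Of these 978 genes, 275 changed at least 2-fold, 179 upward and 96 downward. The median change of all tested genes was -0.02 on the log2 scale. With limma's prior variance held constant over expression, called the constant prior here, 357 genes passed, and 549 passed without the library richest in 18S ribosomal RNA in each of the 4 groups.

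The 6 libraries held between 3508180 and 4417916 reads, so a value of 0 on the log2 scale stood for about 4 reads, and low genes are measured coarsely. Reads are not unique molecules after PCR, and floors on reads cover counting error only. 18S ribosomal RNA took 1.42 ± 0.776% of reads in white light and 1.77 ± 0.55% in shade (SD, n = 3 each; 2-sided exact permutation p = 0.5), with the most in white light replicate 3 and shade replicate 2. An unadjusted p under 0.05 was reached by 3303 of all 21316 tested genes in this comparison, the base for such counts in single lists. Of 22 root marker genes limma called 0 (2 had an unadjusted p under 0.05). Their median change was 0.07, with 0.564 ± 0.00444% of reads in white light against 0.561 ± 0.0144% in shade. Of 11 seed storage genes limma called 0 (1 unadjusted), with a median change of 1.42 at 0.003 ± 0.00287% and 0.00463 ± 0.000761% of reads. The part of these in the results was not tested. In whole seedlings, fewer cells of a type and less RNA per cell cannot be told apart.

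**Figure D1:**
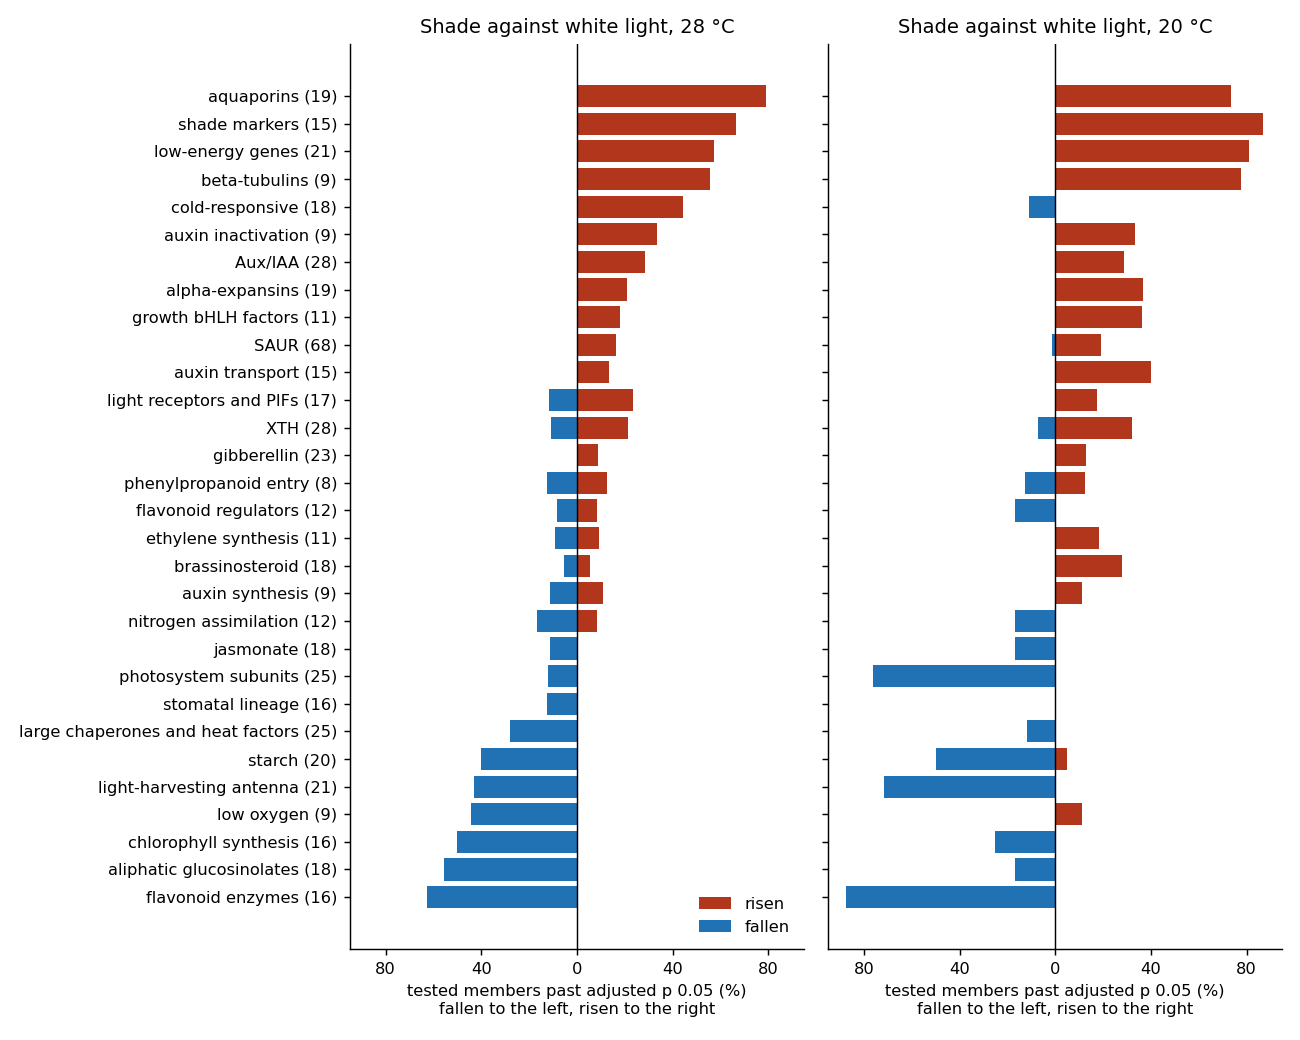
Share of the tested members of each gene list that rose (right) or fell (left) in shade at limma adjusted p under 0.05, at 28 °C (left panel) and 20 °C (right panel), for lists with at least 2 calls at 28 °C; the number tested is in brackets. At 28 °C 15 of 19 aquaporins rose and 10 of 16 flavonoid enzymes fell, while the cold-responsive list has 8 risen members at 28 °C and 0 at 20 °C.

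Genes that mark the shade response in many studies responded in warm seedlings. Of 15 members 10 rose and 0 fell, with a median log2 change of 0.87. HFR1 (AT1G02340), a bHLH protein that restrains PIFs, was at 2.57, 2.26 and 2.47 log2 CPM in white light and at 5.09, 5.30 and 5.11 in shade. The 2 groups are far apart, and HFR1 rose 6.64-fold (log2 change 2.73 ± 0.23, limma's moderated SE, n = 3 per group, limma adjusted p = 9.64e-09). The ± values of log2 changes are of this kind throughout. They rest on a spread estimated over all groups of both temperatures and moderated by the prior variance. They do not measure the spread of the compared libraries alone. PIL1 (AT2G46970), a bHLH gene used as the classic shade marker, was at 1.60, -0.22 and 1.10 in white light and at 3.53, 3.98 and 3.11 in shade. It rose by 2.71 ± 0.47 on the log2 scale, from 24 reads over 3 libraries to 137. The homeobox gene HB-2 (AT4G16780) rose by 2.65 ± 0.24, and ST2A (AT5G07010), a sulfotransferase that inactivates a jasmonate, by 1.90 ± 0.21. Under the constant prior 6 of the 15 rose.

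The photoreceptors and their partners moved less. Of 17 tested receptor and PIF genes 4 rose and 2 fell. PHOT1 (AT3G45780), the blue light receptor of phototropism, was at 8.34, 8.20 and 8.15 in white light and at 8.85, 8.77 and 8.73 in shade. It rose by 0.56 ± 0.09 (limma adjusted p = 0.000161), and PHYB (AT2G18790), the receptor shade turns off, rose by 0.55 ± 0.12. PIF3 (AT1G09530) fell, from 5.89, 6.37 and 6.70 to 5.68, 5.43 and 5.60, a log2 change of -0.75 ± 0.15. PIF4 (AT2G43010), at -0.08 ± 0.14, and PIF5 (AT3G59060), at -0.33 ± 0.18, did not pass. PIF7 (AT5G61270), a PIF of the shade response, was at 3.825, 3.660 and 3.751 in white light and at 3.167, 3.011 and 2.428 in shade, and passed at -0.88 ± 0.25 (limma adjusted p = 0.043), a call lost under 12 of the 25 alternatives. Of 11 genes of the COP1, SPA and HY5 list 0 were called by limma and 0 had an unadjusted p under 0.05, and HY5 (AT5G11260), the main factor of light-grown development, was at -0.21 ± 0.28. Among 17 B-box factors COL5 (AT5G57660) was the 1 call, a rise of 1.05 ± 0.12. PHYA (AT1G09570), the far-red receptor, passed at 0.49 ± 0.12 but not without white light replicate 1 (0.35) or 2 (0.43) or shade replicate 1 (0.44). Fitted with the constant prior, the calls of PHYB, PIF3 and PHYA were lost, and PIF3 was at -0.49, not called, without the 4 libraries richest in 18S reads.

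**Figure D2:**
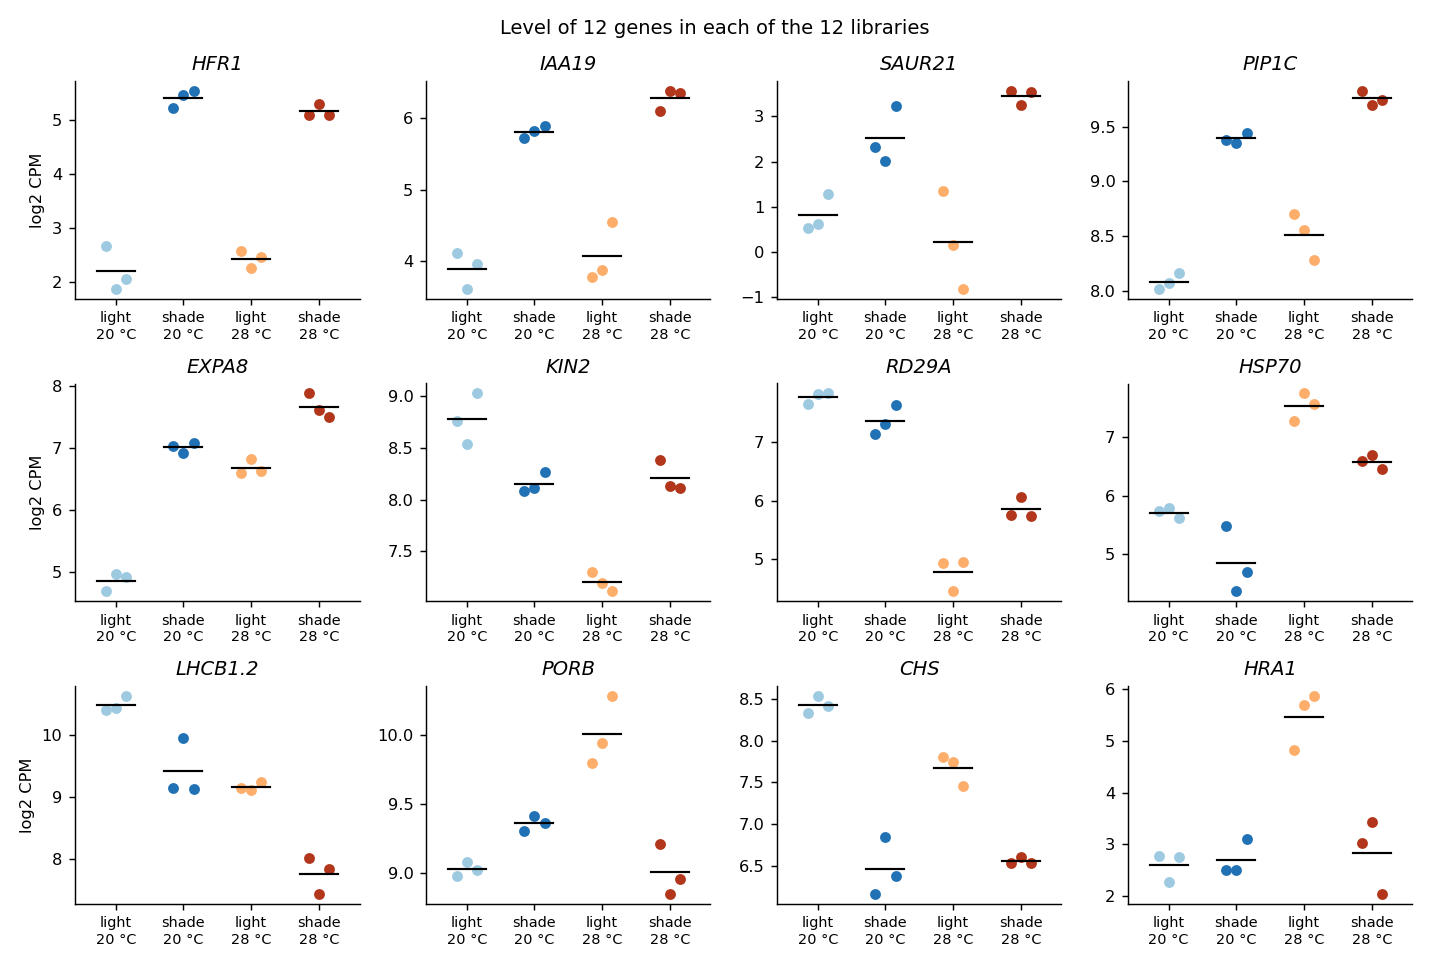
Level (log2 CPM) of 12 genes in the 3 libraries of each group, with the group mean as a bar. HFR1 and IAA19 are high in shade at both temperatures, KIN2 is lower in shade at 20 °C and higher in shade at 28 °C, and HRA1 is between 4.82 and 5.87 in white light at 28 °C against at most 3.43 in every other library.

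Some early response and inactivation genes of auxin rose. YUC8 (AT4G28720), which makes auxin in shade, was at 3.64, 3.35 and 3.68 in white light and at 4.48, 4.87 and 4.59 in shade. The groups are apart, and YUC8 rose by 1.09 ± 0.20 (limma adjusted p = 0.000708). Of 9 tested synthesis genes it was the 1 that rose, 1 fell and 7 did not pass, with a median of 0.11. TAA1 (AT1G70560), the aminotransferase one step before YUC enzymes, fell by 0.77 ± 0.18, but the call was lost without white light replicate 3 (-0.48) or shade replicate 2 (-0.64) and under the constant prior. Of 28 Aux/IAA genes, early auxin-induced repressors, 8 rose and 0 fell, with a median of 0.38. IAA19 (AT3G15540) was at 3.77, 3.87 and 4.55 in white light and at 6.11, 6.39 and 6.36 in shade, a rise of 2.22 ± 0.18. IAA2 (AT3G23030) rose by 1.57 ± 0.13 and IAA7 (AT3G23050) by 0.90 ± 0.11. IAA6 (AT1G52830), named after its values were seen, had 0 reads in white light and 66 in shade, which makes it at least 24.1-fold higher when 3 reads over the 3 white light libraries are taken as the floor.

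GH3 genes, whose enzymes couple auxin to amino acids and so inactivate it, gave the 3 risen members among 9 tested inactivation genes. GH3.3 (AT2G23170) was at 4.37, 4.65 and 4.56 in white light and at 5.63, 5.83 and 6.04 in shade, a rise of 1.303 ± 0.183. GH3.17 (AT1G28130) rose by 0.87 ± 0.13 and GH3.5 (AT4G27260) by 0.61 ± 0.11. In transport, 2 of 15 genes passed: the carriers ABCB19 (AT3G28860) at 0.41 ± 0.10 and AUX1 (AT2G38120) at 0.34 ± 0.09. The ABCB19 call was lost without white light replicate 1 (0.32) or shade replicate 3 (0.40), and the AUX1 call under 9 of the 25 alternatives. When the constant prior was used, GH3.5 and both carriers lost the call.

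Small auxin up RNA (SAUR) genes encode proteins that keep the plasma membrane proton pump active and promote cell expansion. Of 79 genes of the family 68 were tested, 11 rose and 0 fell, with a median of 0.53, and 51 of the 68 had a positive change. SAUR21 (AT5G18030) was at 1.35, 0.14 and -0.82 in white light, or 16 reads in all, and at 3.56, 3.25 and 3.54 in shade, or 125 reads, a 9.39-fold rise (limma adjusted p = 0.000131). SAUR22 (AT5G18050) went from 17 reads to 119 and SAUR50 (AT4G34760) from 86 to 230, and both lost the call under the constant prior, where the family had 10 risen members. SAUR21 to SAUR24, SAUR19 and SAUR20 lie in one cluster of near-identical genes, so reads may be split among them and their separate levels are uncertain. Without white light replicate 2 the family had 6 risen members, without shade replicate 3 it had 7, and without the 4 libraries richest in 18S reads it had 5, with SAUR50 at 1.18 and not called.

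Short DNA motifs known for PIF, auxin response factor and cold factor binding were counted in the 250 bases before the gene start of 20461 tested genes (RefSeq, TAIR10.1). The PBE-box (CACATG, or CATGTG on the other strand), a PIF binding site, was in 11.3% of all promoters, in 98 of 563 of those of risen genes and in 37 of 394 of those of fallen genes. It was in 28 of 68 SAUR promoters (41.2%), namely in 7 of the 11 that rose and in 21 of the 57 that did not pass. The auxin response element (TGTCTC, or GAGACA) was in 10.8% of all promoters, in 12.3% of those of risen and in 12.7% of those of fallen genes. Among the lists counted it was in 32.1% of Aux/IAA, 18.8% of flavonoid enzyme and 10.3% of SAUR promoters, and in 13.3% or less of the others. The G-box (CACGTG, the same on both strands) was in 7.31% of all promoters, in 7.46% of those of risen and in 11.4% of those of fallen genes. None of these motifs contains another, and a match describes letters, not binding. Promoters of auxin-related examples are shown with all motif matches in capitals. That of IAA19, a key gene chosen with matches, is from chr3:5263751-5264000 (plus strand). It holds 3 auxin response elements, 1 PBE-box, 1 G-box and 1 cold motif CCGAC. SAUR21 was chosen for the smallest adjusted p among risen SAUR genes with a PBE-box, so holding that motif was a condition of the choice. Its promoter is from chr5:5968102-5968351 (plus strand) with 1 PBE-box.
IAA19: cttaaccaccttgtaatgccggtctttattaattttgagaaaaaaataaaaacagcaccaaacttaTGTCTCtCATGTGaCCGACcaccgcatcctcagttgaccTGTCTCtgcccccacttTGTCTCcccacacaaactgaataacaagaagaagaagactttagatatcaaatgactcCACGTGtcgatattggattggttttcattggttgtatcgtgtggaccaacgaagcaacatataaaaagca
SAUR21: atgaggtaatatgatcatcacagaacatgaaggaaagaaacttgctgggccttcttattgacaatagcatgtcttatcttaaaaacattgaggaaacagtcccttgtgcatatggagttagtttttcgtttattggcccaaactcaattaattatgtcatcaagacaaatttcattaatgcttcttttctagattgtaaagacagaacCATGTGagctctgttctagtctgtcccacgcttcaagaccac

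Wall and cytoskeleton genes of growing cells rose in part. Of 19 alpha-expansins, which loosen the wall, 4 rose and 0 fell. EXPA8 (AT2G40610) was at 6.59, 6.81 and 6.62 in white light and at 7.87, 7.61 and 7.50 in shade. It rose by 0.98 ± 0.12 (limma adjusted p = 1.5e-06), and EXPA5 (AT3G29030) rose by 0.70 ± 0.14. Of 28 xyloglucan-modifying XTH genes 6 rose and 3 fell. XTH15 (AT4G14130) was at 6.07, 6.38 and 7.33 in white light and at 9.41, 9.20 and 9.45 in shade, a 6.77-fold rise, and XTH4 (AT2G06850) rose by 0.79 ± 0.11. XTH9 (AT4G03210) went the other way, from 7.83, 8.05 and 7.79 to 7.01, 7.21 and 7.07, and fell by 0.79 ± 0.10.

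Of 9 beta-tubulin genes, the subunits of microtubules, 5 rose and 0 fell, with a median of 0.33. TUB8 (AT5G23860) was at 7.14, 7.21 and 7.15 in white light and at 7.99, 7.97 and 7.87 in shade. Its groups are tight and apart, and it rose by 0.78 ± 0.09 (limma adjusted p = 1.42e-06). TUB4 (AT5G44340) rose by 0.59 ± 0.09 and TUB6 (AT5G12250) by 0.55 ± 0.10. Of 12 cellulose synthesis genes 1 passed, CTL1 (AT1G05850) at 0.32 ± 0.09, a call that was lost under 10 of the 25 alternatives. Under the constant prior the risen members were 2 expansins, 3 XTH genes and 3 tubulins. Without white light replicate 2 or shade replicate 2 the risen tubulins were 3, and without shade replicate 2 the risen expansins were 2.

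Other growth hormones gave few calls in number, where 2.68% of all tested genes rose and 1.9% fell. An unadjusted p under 0.05 was more frequent, in 8 of 18 brassinosteroid, 8 of 23 gibberellin and 5 of 11 growth bHLH genes. Over all tested genes it was reached by 3303 of 21316. In the brassinosteroid list 1 of 18 genes rose, CPD (AT5G05690), a cytochrome of brassinosteroid synthesis, by 0.61 ± 0.12. BES1 (AT1G19350), a factor of brassinosteroid response, fell by 0.41 ± 0.10, a call lost without white light replicate 2 (-0.39) and shade replicates 2 (-0.37) and 3 (-0.38). Of 23 gibberellin genes 2 rose, of which GA20OX1 (AT4G25420), a synthesis gene at 1.84 ± 0.49, lost the call without white light replicate 1 or 3 or shade replicate 1 or 2. GAI (AT1G14920), a DELLA repressor of growth, was at 5.38, 5.50 and 5.64 in white light and at 6.36, 6.04 and 6.24 in shade, a rise of 0.70 ± 0.13. Of 11 growth bHLH genes BEE2 (AT4G36540) passed at 0.56 ± 0.13 and IBL1 (AT4G30410) at 0.96 ± 0.22, and neither passed without shade replicate 2 (0.47 and 0.90), nor IBL1 without shade replicate 3 (0.87). The calls of CPD, BES1 and BEE2 were lost under the constant prior.

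Water channels rose together, and of the 43 lists they had the largest share of risen members. Of 19 aquaporins of the plasma membrane (PIP) and the vacuole membrane (TIP), 15 rose and 0 fell, with a median log2 change of 0.68. Together they took 0.761, 0.808 and 0.758% of reads in white light and 1.35, 1.28 and 1.23% in shade. The groups do not overlap (0.775 ± 0.028% against 1.29 ± 0.0592%, SD, n = 3; 2-sided exact permutation p = 0.1, the smallest that 3 against 3 allows). PIP1C (AT1G01620) was at 8.70, 8.56 and 8.28 in white light and at 9.82, 9.70 and 9.74 in shade, a 2.37-fold rise (limma adjusted p = 5.28e-09). TIP2;1 (AT3G16240) was at 8.97, 8.99 and 8.90 in white light and at 10.19, 10.01 and 9.93 in shade, a rise of 1.09 ± 0.11. PIP1D (AT4G23400) rose by 1.05 ± 0.10 and PIP2A (AT3G53420) by 0.96 ± 0.10. The 4 that did not pass, named after their values were seen, were PIP2;4, PIP2;5, PIP2;8 and TIP4;1. PIP2E (AT2G39010), also named afterwards, was at 6.196, 6.459 and 6.517 in white light and at 7.510, 7.407 and 7.284 in shade, and rose by 1.01 at 28 °C against 0.27 at 20 °C (difference 0.74, limma adjusted p = 0.0119). PIP2B and PIP2;3 are near-identical neighbours whose reads may be split. Between 10 and 15 members rose under every alternative.

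**Figure D3:**
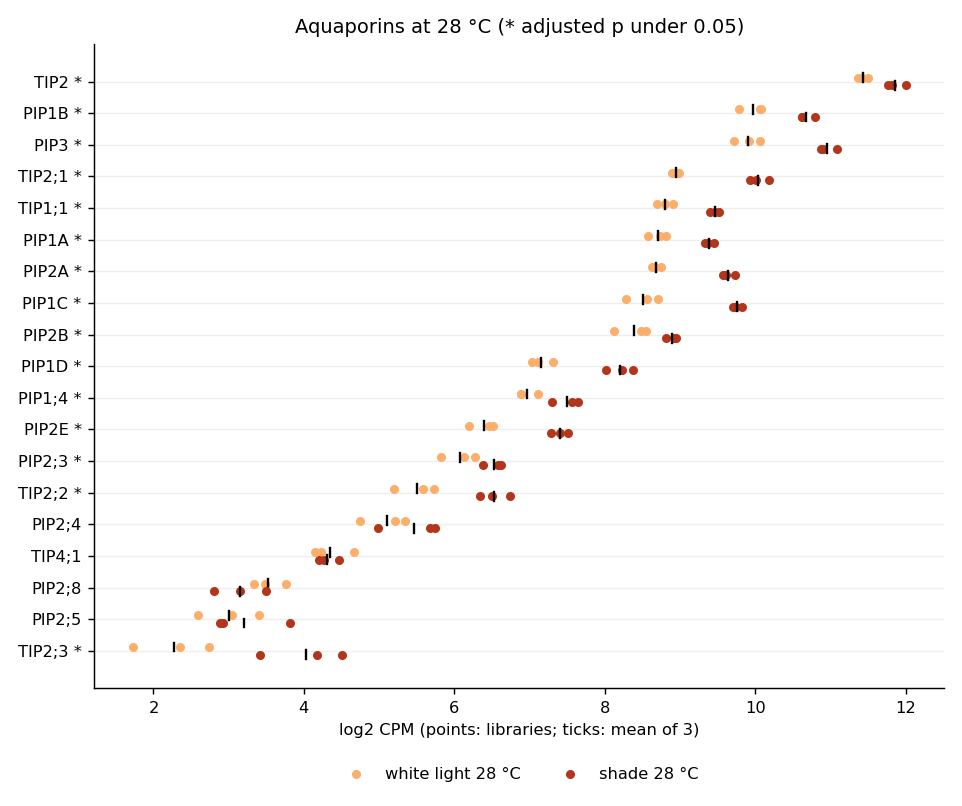
Level (log2 CPM, not per transcript length) of the 19 aquaporins in the 3 white light (light) and 3 shade (dark) libraries at 28 °C, ordered by the mean in white light, with group means as ticks. In the 15 members marked with an asterisk the shade points lie to the right of the white light points.

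Cold-regulated genes, which are normally raised by low temperature through CBF factors, rose in shade at 28 °C. Of 18 tested members 8 rose and 0 fell, with a median of 0.61. At 20 °C, where the shade comparison uses other libraries, 0 rose and 2 fell, with a median of -0.18. KIN2 (AT5G15970) was at 7.30, 7.19 and 7.11 in white light and at 8.39, 8.13 and 8.12 in shade at 28 °C, a 2.02-fold rise (limma adjusted p = 5.4e-07). At 20 °C it was at 8.76, 8.54 and 9.03 in white light and at 8.08, 8.11 and 8.27 in shade, so its direction is opposite. RD29A (AT5G52310), induced by cold and drought, was at 4.94, 4.46 and 4.95 in white light and at 5.75, 6.06 and 5.74 in shade at 28 °C, a rise of 1.07 ± 0.14. All 3 shade values stayed under every RD29A value at 20 °C, the lowest of which was 7.13.

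COR413IM1 (AT1G29395), a chloroplast membrane protein gene, rose by 1.04 ± 0.14, from 6.28, 5.92 and 5.38 to 6.93, 6.83 and 6.94. KIN1 (AT5G15960) rose by 1.21 ± 0.14. KIN1 and KIN2 are close paralogs, so their reads may be split. COR15A (AT2G42540), a chloroplast protection protein, had 16, 2 and 0 reads in white light and 26, 30 and 22 in shade. Its log2 change of 3.39 ± 0.68 fell to 2.13 without white light replicate 3, and the call was lost under the constant prior, under a robust prior and without the 4 libraries richest in 18S reads (2.06). The core of the site bound by CBF factors reads CCGAC or, on the other strand, GTCGG. It was in 12.8% of all promoters, in 12.1% of those of risen genes and in 7 of 18 (38.9%) of the cold list. The share was not particular to cold genes, as 10 of 28 Aux/IAA promoters (35.7%) and 21.1% of aquaporin promoters held the core. In the other lists counted the share was 6.67% or less. The promoters of RD29A at chr5:21240467-21240716 (plus strand), with 3 such cores and a PBE-box, and of COR15A at chr2:17712331-17712580 (minus strand), with 2 cores and a G-box, are shown in the build given above, with motif matches in capitals. Both were chosen as key genes with matches, so they do not stand for the whole list.
RD29A: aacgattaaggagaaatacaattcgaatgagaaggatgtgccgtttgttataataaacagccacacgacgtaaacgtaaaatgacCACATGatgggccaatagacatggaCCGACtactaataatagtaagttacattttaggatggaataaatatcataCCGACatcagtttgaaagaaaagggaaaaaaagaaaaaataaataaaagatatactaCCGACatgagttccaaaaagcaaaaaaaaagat
COR15A: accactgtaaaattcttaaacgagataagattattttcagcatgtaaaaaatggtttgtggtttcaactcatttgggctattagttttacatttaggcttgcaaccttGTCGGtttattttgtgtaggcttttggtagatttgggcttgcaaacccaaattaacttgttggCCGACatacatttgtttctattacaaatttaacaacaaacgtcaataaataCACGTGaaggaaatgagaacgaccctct

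Chaperone genes were lower in shade. Of 25 large chaperone and heat factor genes 7 fell and 0 rose, with a median of -0.44. HSP90.2 (AT5G56030) was at 8.24, 8.16 and 8.27 in white light and at 7.74, 7.73 and 7.67 in shade, and fell by 0.52 ± 0.10 (limma adjusted p = 0.00134). HSP70 (AT3G12580) was at 7.28, 7.75 and 7.57 in white light and at 6.59, 6.69 and 6.46 in shade. CLPB3 (AT5G15450), a chloroplast disaggregating chaperone, fell by 0.78 ± 0.14, and HSP90.1 (AT5G52640) by 0.89 ± 0.18. HSP101 (AT1G74310) was at -0.58 ± 0.22 and did not pass. Of 12 small heat shock protein genes 1 fell, AT5G51440, from 4.46, 4.49 and 4.63 to 2.86, 3.14 and 2.49. HSP18.2 (AT5G59720) was at 7.30, 7.26 and 7.04 in white light and at 7.18, 7.28 and 7.12 in shade, a difference of -0.01 ± 0.29. Fitted with the constant prior, 1 of the 25 larger genes fell, and the calls of HSP70, HSP90.1 and HSP90.2 were lost.

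Genes of the photosynthetic antenna fell further in shade. Of 21 antenna genes 9 fell and 0 rose, with a median of -0.32. At 20 °C 15 fell, with a median of -0.51, and 1 of the 21 had a tested difference between temperatures. The antenna list took 2.72, 2.57 and 2.25% of reads in white light and 2.17, 1.63 and 1.91% in shade (2.51 ± 0.239% against 1.9 ± 0.274%, SD, n = 3; 2-sided exact permutation p = 0.1, the smallest possible). LHCB1.2 (AT1G29910) was at 9.15, 9.11 and 9.25 in white light and at 8.02, 7.44 and 7.84 in shade. It fell 2.64-fold (log2 change -1.40 ± 0.15, limma adjusted p = 6.1e-07), and LHCB4.2 (AT3G08940) fell by 0.65 ± 0.12. LHCB1 genes have near-identical copies, so single levels are uncertain. Of 25 photosystem subunit genes 3 fell, a count that was 10 without white light replicate 3 and 1 without white light replicate 1 or shade replicate 2. At 20 °C 19 fell, and 0 had a tested difference. The list took 2.02 ± 0.328% of reads in white light and 1.77 ± 0.203% in shade at 28 °C (SD, n = 3; 2-sided exact permutation p = 0.4). PSAD-2 (AT1G03130) fell by 0.58 ± 0.11. Of 15 carbon fixation genes 0 fell and 1 rose, CP12-2 (AT3G62410), a regulator of the Calvin cycle, at 0.53 ± 0.13, a call lost without white light replicate 2 (0.54) or 3 (0.34) or shade replicate 1 (0.47). When the constant prior was used, 3 antenna and 0 photosystem genes fell, and the calls of LHCB4.2, PSAD-2 and CP12-2 were lost.

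Chlorophyll synthesis genes were lower in shade. Of 16 genes 8 fell and 0 rose, with a median of -0.40. PORB (AT4G27440), the light-dependent enzyme that reduces protochlorophyllide, was at 9.80, 9.94 and 10.29 in white light and at 9.21, 8.85 and 8.95 in shade. It fell 2.01-fold (limma adjusted p = 6.55e-07). At 20 °C PORB was at 8.97, 9.08 and 9.02 in white light and at 9.30, 9.41 and 9.36 in shade, without passing. GUN4 (AT3G59400) and CHLH (AT5G13630), which act at the insertion of magnesium, fell by 0.88 ± 0.13 and 0.54 ± 0.10. CRD1 (AT3G56940), the cyclase of the fifth ring, fell by 0.70 ± 0.09. The count was 5 under the constant prior and 5 without white light replicate 2.

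Flavonoid genes fell from the first enzyme to the last steps of anthocyanin. Of 16 enzymes 10 fell and 0 rose, with a median of -1.17. At 20 °C 14 fell, with a median of -2.02, and 1 of the 16 had a tested difference between temperatures. CHS (AT5G13930), which opens the pathway, was at 7.80, 7.75 and 7.46 in white light and at 6.527, 6.598 and 6.535 in shade, and fell 2.16-fold (limma adjusted p = 1.05e-06). At 20 °C CHS fell 3.91-fold, and its difference of 0.85 lost the call in 6 fits that left out 1 library. The helper protein CHIL (AT5G05270) fell by 1.29 ± 0.19. At the anthocyanin end, AT5MAT (AT3G29590), an acyltransferase, had 22, 15 and 22 reads in white light and 0 in shade, at least 18-fold lower with the floor set at 3 reads over the 3 shade libraries. DFR (AT5G42800), which commits the pathway to anthocyanin, had 86 reads in white light and 9 in shade, and GSTF12 (AT5G17220), needed to store anthocyanin in the vacuole, had 98 and 15. Of 12 regulators MYB75 (AT1G56650), the activator of anthocyanin genes, fell from 18, 30 and 16 reads to 0, 3 and 5. The repressor MYBL2 (AT1G71030) passed as risen at 0.97 ± 0.26, with overlapping groups, but not without white light replicate 3 (0.55) or shade replicates 1 (0.87) and 2 (0.91). Of 8 genes of the phenylpropanoid entry, PAL4 (AT3G10340) rose by 0.58 ± 0.14 and PAL3 (AT5G04230) fell by 0.88 ± 0.23. Neither PAL call held without white light replicate 1 (0.49 and -0.68), PAL4 was not called without white light replicate 2 or shade replicate 3 (0.56 each), nor PAL3 without shade replicate 2 (-0.79). Under the constant prior 6 flavonoid enzymes fell and the calls of GSTF12, MYB75, MYBL2, PAL4 and PAL3 were lost.

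Genes raised in darkness and carbon starvation rose, and starch genes fell. Of 21 low-energy genes 12 rose and 0 fell, all 21 had a positive change, and the median was 0.49. ASN1 (AT3G47340), an asparagine synthetase, was at 6.26, 5.39 and 4.79 in white light and at 8.11, 7.84 and 8.20 in shade, a 5.94-fold rise (limma adjusted p = 1.83e-06). MCCA (AT1G03090) and BCAT2 (AT1G10070), which break down leucine and other branched amino acids, rose by 1.31 ± 0.16 and 1.54 ± 0.21. ERD5 (AT3G30775), proline dehydrogenase, rose by 0.88 ± 0.13. The list had 4 risen members under the constant prior and 7 without the 4 libraries richest in 18S reads.

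Of 20 starch genes 8 fell and 0 rose, with a median of -0.35. GBSS1 (AT1G32900), which makes amylose, was at 3.92, 3.84 and 4.29 in white light and at 1.44, 2.48 and 1.53 in shade, a 4.61-fold fall (limma adjusted p = 2.16e-05). ADG1 (AT5G48300), of the enzyme that supplies ADP-glucose, fell by 0.75 ± 0.11, and the branching enzyme SBE2.2 (AT5G03650) by 0.65 ± 0.11. DPE2 (AT2G40840), of the breakdown of starch to sucrose, fell by 0.59 ± 0.10. GPT2 (AT1G61800), a carrier of glucose phosphate into plastids and one of the 12 largest falls, went from 33, 31 and 40 reads to 4, 1 and 8. Fitted with the constant prior, 3 starch genes fell, and DPE2 was no longer among the calls.

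Of 12 nitrogen genes 1 rose and 2 fell. NRT2.1 (AT1G08090), a nitrate carrier, was at 3.06, 2.40 and 0.56 in white light and at 2.92, 5.29 and 5.15 in shade, with overlapping groups. Its change of 2.44 ± 0.48 was 1.3, and not called, without the 4 libraries richest in 18S reads. NIR1 (AT2G15620), nitrite reductase, was at 4.25, 7.79 and 5.68 in shade against 4.82, 5.29 and 5.10 in white light and did not pass. Glutamine synthetase GLN1;1 (AT5G37600) fell by 0.47 ± 0.10. The count of fallen members was 1 without white light replicate 1 or shade replicate 1 or 3. The NRT2.1 and GLN1;1 calls were lost under the constant prior, and that of NRT2.1 under a robust prior.

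Glucosinolates are sulfur compounds that defend against herbivores, and the aliphatic ones are made from methionine by chain elongation and a core pathway. Of 25 genes 18 were tested, 10 fell and 0 rose, with a median of -0.95. At 20 °C 3 fell, with a median of -0.55, and 0 of the 18 had a tested difference between temperatures. MAM3 (AT5G23020), of the first elongation step, was at 4.41, 4.85 and 4.83 in white light and at 3.07, 3.06 and 3.38 in shade, and fell 2.88-fold (limma adjusted p = 3.93e-05). IMD1 (AT5G14200), of the last elongation step, was at 4.12, 3.87 and 4.45 in white light and at 2.05, 2.72 and 1.39 in shade, a log2 change of -2.09 ± 0.32. CYP83A1 (AT4G13770), of the core pathway, went from 37, 33 and 30 reads to 6, 3 and 0. BAT5 (AT4G12030), the carrier of the keto acids into plastids, went from 57 reads to 12, and MAM1 (AT5G23010) from 78 to 14. IIL1 (AT4G13430), an isomerase subunit shared with leucine synthesis, fell by 0.41 ± 0.09, a call lost under the constant prior and without the 4 libraries richest in 18S reads (-0.38).

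Among the later core genes, named after their values were seen, AT2G31790 fell by 0.62, while GSTU20 at -0.75, SOT18 at -0.32, SUR1 at 0.18 and SOT17 at 0.10 did not pass. Of 11 indole glucosinolate genes, made from tryptophan, 0 were called by limma and 2 had an unadjusted p under 0.05, and the largest change was that of IGMT1 (AT1G21100) at 0.50 ± 0.19. The aliphatic count was 4 under the constant prior, 6 without white light replicate 2 and 5 without the 4 libraries richest in 18S reads. The MAM1 call was lost under the constant prior and without white light replicate 1 (-2.96) or 2 (-2.95) or shade replicate 2 (-1.66), and the BAT5 call without white light replicate 2 (-1.92) or 3 (-2.01) or shade replicate 1 (-1.76).

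**Figure D4:**
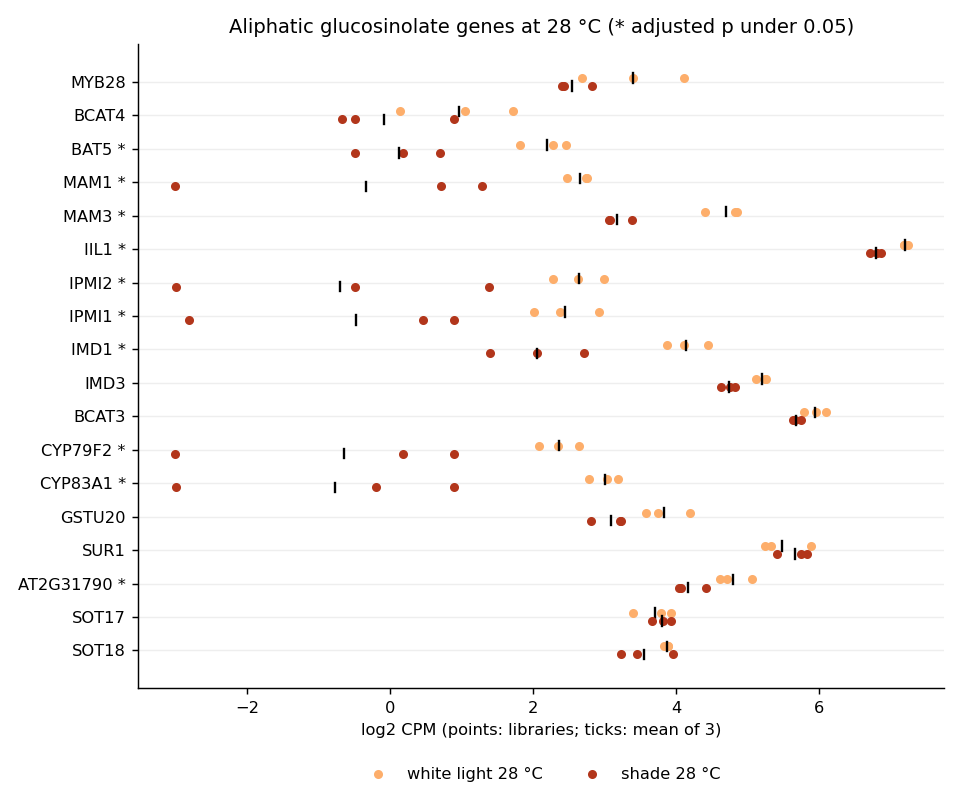
Level (log2 CPM) of the 18 tested aliphatic glucosinolate genes in the 3 white light (light) and 3 shade (dark) libraries at 28 °C, ordered from regulator through chain elongation to core pathway, with group means as ticks and an asterisk at limma adjusted p under 0.05. The 10 marked genes are lower in shade, and points near -3 are libraries with 0 reads.

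Defence hormones gave few calls in number, where 2.68% of all tested genes rose and 1.9% fell. Of 18 jasmonate genes 2 fell. AOC2 (AT3G25770), allene oxide cyclase of jasmonate synthesis, was at 5.81, 6.03 and 5.53 in white light and at 4.39, 4.07 and 4.67 in shade, and fell 2.66-fold (limma adjusted p = 6.61e-07). Its paralog AOC1 (AT3G25760) passed at -0.87 ± 0.23 but lost the call under 9 of the 25 alternatives. Of 11 salicylic acid genes ICS1 (AT1G74710), which makes the precursor of salicylic acid, was the 1 call, a fall of 0.93 ± 0.20. In the abscisic acid list CYP707A1 (AT4G19230), which breaks that hormone down, fell by 0.80 ± 0.18, a call lost without white light replicate 3 (-0.54) and under the constant prior.

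Genes known from oxygen shortage were lower in shade than in white light at 28 °C. Of 9 members 4 fell and 0 rose, all 9 had a negative change, and the median was -1.42. HRA1 (AT3G10040), a factor that attenuates the low-oxygen response, was at 4.82, 5.70 and 5.87 in white light and at 3.02, 3.43 and 2.05 in shade, a 6.18-fold fall (limma adjusted p = 3.37e-06). At 20 °C it was at 2.77, 2.28 and 2.75 in white light and at 2.51, 2.50 and 3.11 in shade. LBD41 (AT3G02550), a factor induced by low oxygen, was at 5.686, 6.597 and 6.977 in white light and at 4.22, 5.49 and 4.75 in shade at 28 °C. It fell 3.03-fold (limma adjusted p = 0.000342). PCO1 (AT5G15120), an oxygen-sensing cysteine oxidase, was at -1.59 ± 0.48 and did not pass at 28 °C, and rose by 2.17 at 20 °C. PCO2 (AT5G39890), a second such oxidase, passed at -1.42 ± 0.41, and ADH1 (AT1G77120), alcohol dehydrogenase, at -2.26 ± 0.65 with overlapping groups. The ADH1 and PCO2 calls were lost without white light replicate 2 (-2.27 and -1.30) or 3 (-1.52 and -0.95), shade replicate 2 (-2.08 and -1.53) or shade replicate 3 (-1.76 and -1.43), and the count was then 2. PCO2 was also lost without shade replicate 1 (-1.29). The count was 1 under the constant prior, where LBD41 was not called, as under a robust prior. In white light at 28 °C the reads of HRA1, LBD41, PCO1, PCO2 and ADH1 all increased from replicate 1 to 2 to 3. Members that vary together between libraries are not separate observations of the shade effect.

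Among developmental genes SPCH (AT5G53210), which starts the stomatal lineage, was at 3.29, 2.95 and 3.12 in white light and at 0.89, 0.90 and -0.68 in shade. It fell 6.74-fold (limma adjusted p = 0.000858), from 109 reads to 15, and was one of 2 of 16 stomatal genes that passed. The other, the receptor gene TMM (AT1G80080) at -0.66 ± 0.18, was lost under 7 of the 25 alternatives, among them the fits without white light replicate 1 or 3 or any 1 shade replicate. Of 21 clock genes RVE4 (AT5G02840) was the 1 call, a rise of 0.56 ± 0.14 that was lost without white light replicate 1 (0.50) or shade replicate 1 (0.51) and under the constant prior. Of 20 cell cycle genes 0 were called by limma and 4 had an unadjusted p under 0.05, as did 3303 of all 21316 tested genes. The largest change in this list was that of CYCB1;4 (AT2G26760) at -0.75 ± 0.23.

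Among the 12 largest rises were those of the peptide gene RTFL21 (AT1G67265), from 19 reads to 144, AIR1 (AT4G12550), known from auxin-treated roots, from 20 to 149, and AT5G61660, a glycine-rich protein gene, from 23 to 169. AT5G02540, annotated as a Rossmann-fold protein, was at 3.58, 4.23 and 4.43 in white light and at 7.18, 7.16 and 6.86 in shade. It rose 7.9-fold (limma adjusted p = 2.47e-08). AT5G35525, annotated as a PLAC8 family protein, went from 26 reads to 163. HB4 (AT2G44910), a homeobox gene of the shade marker list, went from 17 to 84 and the channel gene MSL5 (AT3G14810) from 16 to 59, and both lost the call without white light replicate 2, which had 0 reads of either (1.85 and 1.39) and under a robust prior, and MSL5 also without shade replicate 1 (2.52). The chloroplast genes ATCG00930 and ATCG01200, which share all their reads and so are 1 observation, were among the largest falls, from 20, 18 and 66 reads to 5, 8 and 1. The 66 reads are from white light replicate 3. Ribosomal and organelle genes took 3.91% of its reads, against 1.53 and 1.15% in replicates 1 and 2 and 1.97, 3.98 and 2.89% in shade. The RTFL21, HB4, MSL5, ATCG00930 and ATCG01200 calls were lost under the constant prior.

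The effect of shade at 20 °C rests on the other 6 libraries, so the effects at the 2 temperatures share no sample, only the estimate of the spread. At 20 °C 1158 genes rose (5.43%) and 566 fell (2.66%). Of the genes risen at 28 °C, 403 also rose at 20 °C, which is 70.5% of the former and 34.8% of the latter. Of the fallen genes 133 did so at both, 32.8% of the 406 at 28 °C and 133 of the 566 at 20 °C. Genes risen at 28 °C had a median of 0.73 there and 0.77 at 20 °C, while fallen genes had -0.65 and -0.32. Of the 978 genes called at 28 °C 889 had the same sign at 20 °C. Across all tested genes the effects had a Pearson correlation of 0.27, a description over genes that are not independent.

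The difference of the shade effects (28 °C minus 20 °C) was positive for 27 genes (0.127%) and negative for 68 (0.319%) by limma. Of the 432 genes called at 28 °C and not at 20 °C, 24 had a tested difference, so most of these are not shown to respond differently. Cold-regulated genes gave 4 of the positive differences: KIN1 at 1.91, KIN2 at 1.63, RD29A at 1.48 and COR413IM1 at 1.06. CT-BMY (AT4G17090), a chloroplast beta-amylase, had 1.53, with no shade effect called at 28 °C (-0.01 ± 0.17) and a fall of 1.54 at 20 °C. Its values at 28 °C were 5.43, 5.00 and 4.49 in white light and 5.28, 4.62 and 4.97 in shade, against 8.04, 7.84 and 8.12 in white light at 20 °C. HRA1 (-2.74), LBD41 (-2.43), PCO1 (-3.76) and PORB (-1.34) had negative differences. EXPA8 had -1.16, with a rise of 0.98 at 28 °C and of 2.14 at 20 °C.

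Calls in opposite directions were made for 10 genes, which were named after their values were seen. AT1G56660, KIN1 and KIN2 rose in shade at 28 °C and fell at 20 °C. The other 7 fell at 28 °C and rose at 20 °C, among them 2 ethylene genes: EBP (AT3G16770), a response factor, at -0.81 and 0.86, and EIN2 (AT5G03280), the central signalling protein, at -0.37 and 0.37. ACR4 (AT1G69040) was at -0.67 and 0.44, PI4K GAMMA 7 (AT2G03890) at -0.54 and 0.44, and AT3G20395 at -1.18 and 1.08. The chloroplast pair ATCG00940 and ATCG01190, which share all their reads, was at -1.70 and 1.77, a call at 28 °C that was lost under 12 of the 25 alternatives, among them the fits without white light replicate 3 (-0.99) and without shade replicate 1 (-1.81), 2 (-1.80) or 3 (-1.49). When the constant prior was used, 6 differences passed, 2 of them from the 95, KIN1 and KIN2. The share of positive differences was 28.4%, but 39.4% with libraries centred on their medians, 43.6% with trimmed mean scaling and 47.4% after quantile normalization. Without white light 28 °C replicate 1 the count was 155, without shade 20 °C replicate 3 it was 59 and without shade 28 °C replicate 3 it was 61.

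**Figure D5:**
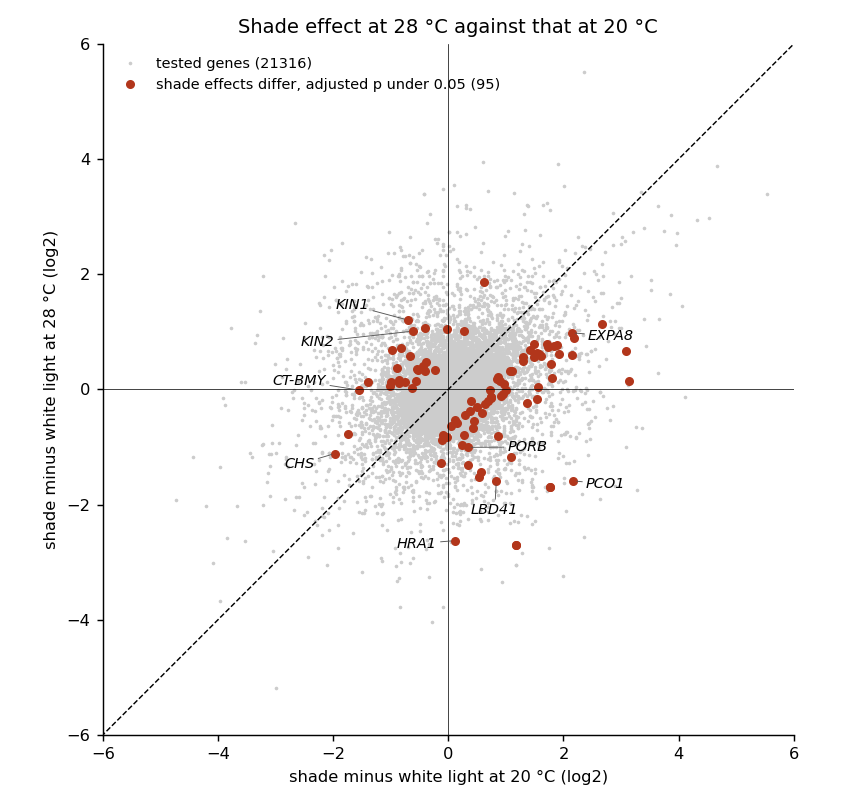
Log2 change in shade at 20 °C (horizontal) against that at 28 °C (vertical) for 21316 tested genes, with equal effects on the dashed line and the 95 genes with a tested difference in red. KIN1 and KIN2 lie above the line with a rise at 28 °C and a fall at 20 °C, HRA1 and PORB below it with a fall at 28 °C, and EXPA8 rises at both temperatures.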

How the data were processed

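The authors deposited a table of log2 CPM on the voom scale, with 0.5 read added to each count; its decimal commas were read as points. Whole reads were recovered from 100% of the deposited log2 values within 0.001 read. Per the submitters' processing notes, TopHat2 2.1.1, SAMtools 1.3, limma, R 4.0.2 and TAIR10 were used; the read counter is not given in the sources used here. Libraries were made from 3 µg of RNA with 12 PCR cycles, per the labels' protocols, which do not state that strand was kept. Columns marked Amb were read as 20 °C and those marked Heat as 28 °C.

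Log2 values were fitted with limma 3.58.1 (R 4.3.3) on the means of the 4 groups, with a trended prior variance and Benjamini-Hochberg adjustment over 21316 genes, and called at 0.05. The 12286 genes under the filter held 0.052% of reads. Results of a single value used exact permutation tests, where 3 against 3 cannot go below 0.1. Python 3.11.15, numpy 2.4.6, pandas 2.3.3, scipy 1.17.1 and matplotlib 3.10.9 made tables and figures. The fit was also run on simulated data, with the same spread set for all genes and changes only in genes well above the filter. That run does not cover the lowest genes, and no conclusion is drawn from it. The named genes were the 12 largest rises and falls with a mean of at least 1 on the log2 scale and no overlap, the 4 genes with the smallest adjusted p of each list, the 6 largest differences each way and 33 key genes. The comparison and the 43 lists (809 distinct genes) were chosen with earlier results of these data known. Of the gene IDs, 32835 were found among those of RefSeq, and AT5G01830, which shares the symbol SAUR21, was left out. Reads of F3H, HSFB1, SAUR13, SAUR30 and bZIP1 are identical to those of another listed gene. Replicate numbers did not pair the samples: the residual correlation of the 18 same-numbered pairs lay between -0.03 and 0.041. Alternatives changed the prior, filter, scaling, added reads, weights, libraries fitted and replicate block, and left out each library.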

Additional observations from a re-analysis of the deposited data

Results flagged for a closer look

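The shade effect differed between 28 and 20 °C, by limma's interaction term, for 95 genes, and the named ones among them are given here as the log2 change at 28 °C minus that at 20 °C. Of the cold-regulated genes, KIN1 had 1.91, KIN2 1.63, RD29A 1.48 and COR413IM1 1.06. The starch-degrading CT-BMY had 1.53 and the flavonoid enzyme CHS 0.85. The receptor-like kinase gene CRK18 had 1.66, AT2G43620, annotated in the chitinase family, 1.54, and AT1G78450, annotated as a SOUL heme-binding protein, 1.51. Of the low-oxygen genes, PCO1 had -3.76, HRA1 -2.74 and LBD41 -2.43. The chloroplast genes ATCG00930 and ATCG01200, which share their reads, had -3.88, and ATCG00940 and ATCG01190 had -3.46. AT5G22580 had -3.00 and PORB -1.34. The wall genes EXPA8, EXPA3, XTH4 and XTH9 had -1.16, -0.92, -0.70 and -0.70, and the receptor PHYA had -0.81. Leaving out 1 library at a time lost the call in 9 fits for EXPA3, 8 for AT1G78450 and 7 for XTH4. It was lost in 6 fits each for CHS and AT2G43620, and in 5 each for CRK18, AT5G22580, ATCG00930 and ATCG01200. PHYA lost it in 4 fits, XTH9 in 3, and ATCG00940 and ATCG01190 in 1. The other differences named here kept it in all of these fits. Of the 95 differences, 43 kept the call in every fit that left out 1 library, 2 kept it with a constant prior variance, and 0 changed sign under any alternative tried.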

How the results depend on the processing

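The count of genes called at 28 °C was 978, and 357 with a constant prior variance, 549 without the 4 libraries richest in 18S reads, 1 in each group, 656 to 985 when 1 library was left out and 870 to 1059 under the other alternatives. The count of differences was 95, and 6, 42 and 59 to 155 under the first 3 of these. Replicate numbers are shared by the groups, but the samples do not deviate together, and with the replicate as a block 1043 genes (598 risen, 445 fallen) and 138 differences were called. Of 165 named genes 123 were called; 64 kept the call under all 25 alternatives, 59 lost it under at least 1, 56 of them with a constant prior variance, and 0 called genes changed sign. Leaving out 1 library moved the difference in the share of reads (percentage points) between 0.481 and 0.54 for aquaporins, -0.745 and -0.471 for antenna genes, -0.423 and -0.0994 for photosystem genes, 0.000244 and 0.00311 for seed storage genes, -0.0044 and -0.00262 for small heat shock proteins, and -0.00954 and 0.00462 for root markers, whose difference was -0.0032, or 0.00127 outside ribosomal and organelle genes. Among genes not called, the sign changed when 1 library was left out for AT1G78450 (-0.05 to 0.27), CT-BMY (-0.25 to 0.21), AT5G22580 (-0.17 to 0.49), NIR1 (-0.10 to 1.67, and -0.09 without those 4 libraries richest in 18S reads), YUC9 (-0.24 to 0.25), PIF4 (-0.17 to 0.03), COP1 (-0.29 to 0.13), HSP18.2 (-0.09 to 0.04) and PRR5 (-0.04 to 0.12). The causes were not tested. At about 4 reads per unit of CPM, low genes are limited by depth.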

Other observations

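Other hormone lists held few calls in number, with an unadjusted p under 0.05 in 4 of 17 cytokinin and 5 of 11 ethylene synthesis genes. Over all tested genes 2.68% rose and 1.9% fell, and 3303 of 21316 had such an unadjusted p. Of 17 cytokinin genes CKX5 (AT1G75450), a cytokinin oxidase, rose by 0.63 ± 0.17 (limma adjusted p = 0.0323), a call lost under 7 of the 25 alternatives, among them the fits without white light replicate 1 or 2 or any 1 shade replicate. Of 11 ethylene synthesis genes ACS8 (AT4G37770), an ACC synthase, rose by 3.06 ± 0.91 but lost the call under 13 of the 25 alternatives. The evening element (AAATATCT, or AGATATTT on the other strand), known from clock-regulated genes, was in 4.94% of all promoters, in 7.1% of those of risen genes and in 7.87% of those of fallen genes. It was in 5 of 18 promoters (27.8%) of the cold-regulated list and in 3 of 16 (18.8%) of the flavonoid enzyme list. In the other lists counted the share was 5.88% or less.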
